A study of Mus musculus with 9 samples.

Results

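The data described here are the levels of 9 genes of glycogen synthesis and breakdown in mouse tumours and in normal skeletal muscle. The 9 genes were chosen by name, and all 9 were found among the 14440 genes that a single symbol identifies on the array. They were read by 13 of the 30508 probe sets held. Total RNA of 5 tumours and 4 muscle samples was hybridised to Affymetrix arrays, each sample to 1 array. Tumours arose in mice labelled MYF-5 CRE/SSM2, a model that carries the SYT-SSX fusion of synovial sarcoma and in which Cre recombinase is driven by Myf5, a gene of muscle precursors. Tumour 1 was labelled CC23, tumour 2 CC17-B, tumour 3 CC17-A, tumour 4 SSM5 and tumour 5 SSM4. Muscles 1 to 4 were wild type samples of hind limb, intercostal muscle, forelimb and hind limb (the sample labelled Hind limb 2), so genotype and tissue differ together. Age and sex were not given in the sources used here, and no label ties each array to an animal of its own, so p-values measure the spread between these samples, which may be technical.

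Glycogen is the branched glucose store of muscle and liver. Glycogenin primes it, glycogen synthase lengthens the chains with UDP-glucose, and the branching enzyme adds the branch points. Glycogen phosphorylase releases glucose 1-phosphate from the chain ends, and it is switched on by phosphorylase kinase, a complex of alpha, beta, gamma and delta subunits whose gamma subunit is the catalyst and whose delta subunit is calmodulin. Several of these proteins have a form typical of muscle and others typical of liver, brain or most tissues, and loss of the muscle phosphorylase PYGM in people causes McArdle disease.

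The muscle forms of these enzymes were far lower in the tumours, while the brain form of phosphorylase and the liver form of the kinase's catalytic subunit were higher. Pygm, the muscle phosphorylase, and Phka1, the muscle alpha subunit of phosphorylase kinase, stood at 3.14% and 4.14% of their muscle means. Tumour 5 carried the Pygm mean, and the ratios of tumour to muscle from the log2 fit were 0.0121 for Pygm and 0.0430 for Phka1. Phkg1, the muscle catalytic subunit, lay below the floor, the 40th percentile of an array, in 4 of the 5 tumours. Phkb, the beta subunit, Gys1, the muscle glycogen synthase, and Gbe1, the branching enzyme, stood at 16.6%, 12.9% and 19.2%. Pygb, the brain phosphorylase, and Phkg2, the catalytic subunit of liver and testis, rose to 260.2% and 183% of muscle. Pygl, the liver phosphorylase, did not pass the test. By limma, with adjustment over the 10650 genes tested, 6 of the 9 members were lower in tumours, 2 were higher and 1 was not called, beside 17.9% of all genes called lower and 30.1% called higher (48.0% in either direction). The median log2 fold change of the 9 members was −2.52, and that of all genes tested was 0.23. Groups did not overlap for the 6 lower members, against 15.1% of all genes with every tumour below every muscle, nor for the 2 higher members, against 25.2% with every tumour above.

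**Figure D1:**
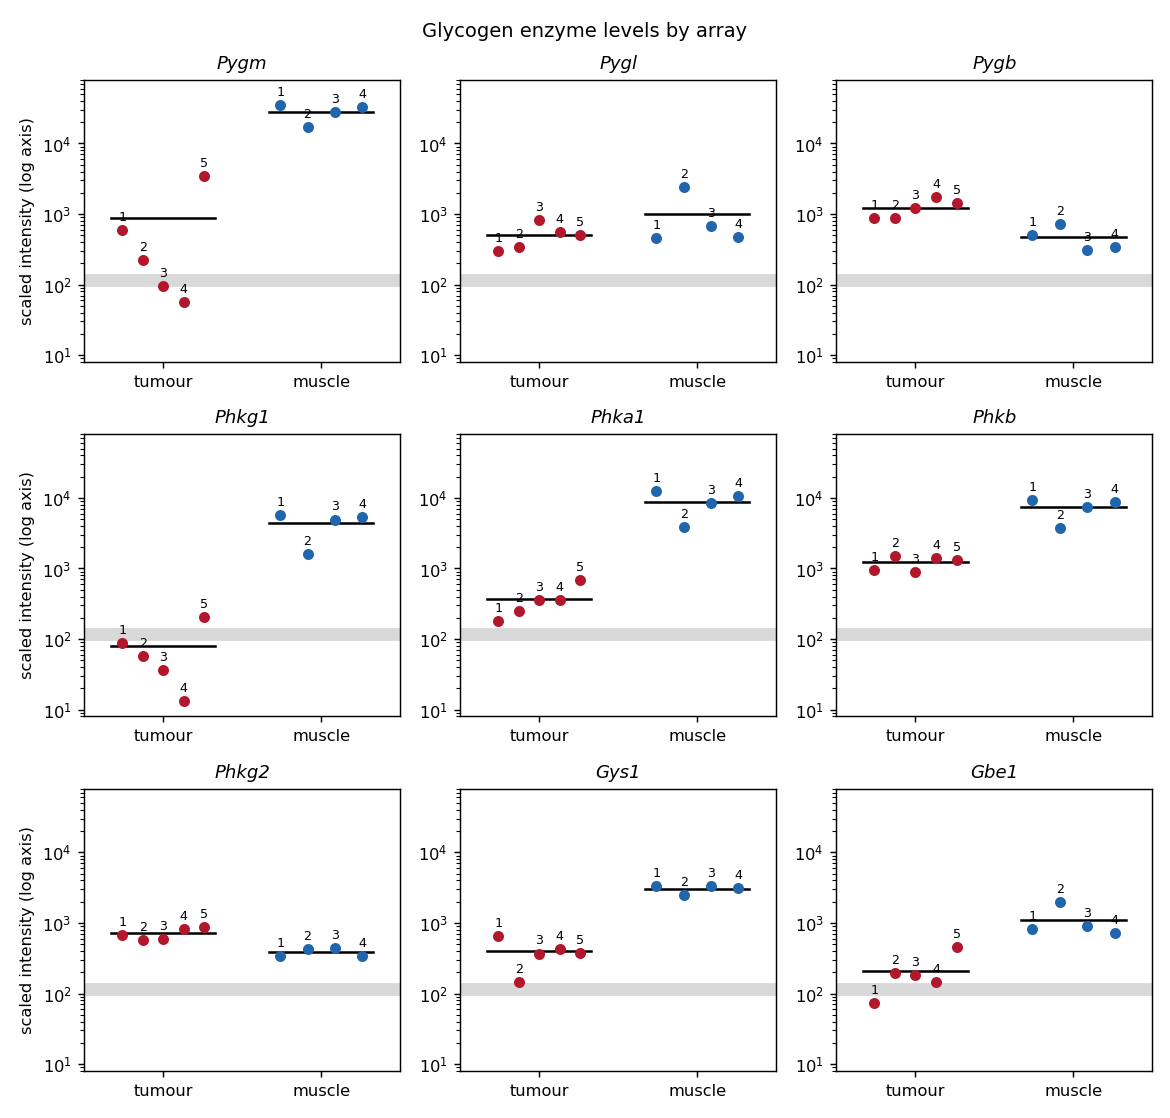
Scaled intensity (log axis) of the 9 genes in each tumour (red, left) and each muscle sample (blue, right), with the array number beside each point, the group mean as a black line and the range of the arrays' floors as a grey band. Tumours lie below every muscle sample for Pygm, Phkg1, Phka1, Phkb, Gys1 and Gbe1, and above every muscle sample for Pygb and Phkg2.

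Levels are MAS5 signals scaled between arrays, and the floor of an array, its 40th percentile, ran from 96.5 to 137. The intensity of a probe set depends on its sequence, so the level of one gene cannot be set against that of another. In whole tissue, fewer cells of a type and less RNA per cell cannot be told apart. The labelled tissue showed its markers: the summed level of 10 of 11 skeletal muscle markers held was 382214 to 539094 in muscle. It was 69901, 26940.3, 4539, 409.9 and 96048 in tumours 1 to 5. Of the 10 markers 8 were lower, 0 higher and none at 0, beside 17.9% lower and 30.1% higher among all genes. Des, the muscle intermediate filament, was low in muscle as well at 208 ± 75.1 (SD, n = 4). In muscle 2, the intercostal sample, 37.8% of tested genes were below and 31.7% above all of the other 3 muscle samples. Any of 4 arrays is lowest or highest for some share of genes, and that share was not computed for the other muscle samples. The summed level of 5 adipocyte markers was 118624 in muscle 2, against 28786 to 35689 in the other muscle samples. That of 6 neutrophil markers was 56455 in muscle 3, against 968 to 4529 in the others. The 3-prime to 5-prime signal ratio of the Actb controls, a sign of RNA integrity, was 1.99 to 12.7 in tumours, highest in tumour 1, and 1.62 to 1.93 in muscle.

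The promoters of 3 members are shown because their genes moved most or moved apart: of the 9 members, Pygm and Phkg1 had the largest falls and Pygb the largest rise. Each is a window of 300 bases, from 250 before to 50 after the start of the gene, from RefSeq on build GRCm38.p6, and an entry was held for all 9 members. Capitals mark E-boxes, the letters CANNTG that basic helix-loop-helix proteins such as MYOD and MYF5 bind.
Pygm, chr19:6384158-6384457 on the plus strand: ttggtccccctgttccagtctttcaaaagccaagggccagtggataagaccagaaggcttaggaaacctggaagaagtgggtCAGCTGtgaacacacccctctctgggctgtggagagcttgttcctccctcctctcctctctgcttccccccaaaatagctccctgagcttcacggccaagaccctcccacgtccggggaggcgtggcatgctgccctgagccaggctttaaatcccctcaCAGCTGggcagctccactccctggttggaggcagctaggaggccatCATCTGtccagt
Phkg1, chr5:129879039-129879338 on the minus strand: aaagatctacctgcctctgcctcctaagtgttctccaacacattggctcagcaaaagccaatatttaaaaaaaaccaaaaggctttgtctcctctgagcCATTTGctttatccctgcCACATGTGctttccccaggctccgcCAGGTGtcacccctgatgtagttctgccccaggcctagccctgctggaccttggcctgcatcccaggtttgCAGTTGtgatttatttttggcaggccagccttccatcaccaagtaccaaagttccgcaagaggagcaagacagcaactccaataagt
Pygb, chr2:150786546-150786845 on the plus strand: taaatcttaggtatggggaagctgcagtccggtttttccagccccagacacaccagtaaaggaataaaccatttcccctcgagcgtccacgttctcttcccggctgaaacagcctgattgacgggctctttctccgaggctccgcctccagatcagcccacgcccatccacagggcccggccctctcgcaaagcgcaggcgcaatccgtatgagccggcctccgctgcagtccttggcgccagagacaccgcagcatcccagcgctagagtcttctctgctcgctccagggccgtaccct
The Pygm window held 3 E-boxes, which began at −168, −8 and 39 from the start of the gene, and the first and second read CAGCTG. The Phkg1 window held 5, at −151, −133, −131, −108 and −37, of which those at −133 and −131 overlap, and none read CAGCTG. The Pygb window held 0. The motif is its own reverse complement, so both strands are covered, and 7 of the 9 member windows held it, against 72.3% of all 32851 promoter windows in the table. CAGCTG, a form of the same motif, was in 4 member windows, those of Pygm, Phka1, Phkb and Gys1, against 16.3% of all windows. The MEF2 motif was in 0 of the 9 and in 3.2% of all. A match is a description of the letters and not of binding.

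Among the phosphorylases, Pygm was at 593, 221, 95.5, 56.1 and 3480.3 in tumours 1 to 5, against 34572, 17268, 28156 and 33244 in muscles 1 to 4. Every tumour lay below every muscle sample, and tumours 3 and 4 lay below the floor, so their distance from muscle is limited by background. Its log2 fold change was −6.36 (adjusted p = 0.000229, SE 0.92), the 12th lowest of the 10650 genes tested. Tumour 5 was the highest of the tumours and carried their mean of 889 ± 1464 (SD, n = 5), which was 241 ± 245 (SD, n = 4) without it, where the log2 fold change was −7.21.

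Pygm was above the floor in tumours 5, 1 and 2, in falling order, which are also the tumours with the highest summed muscle markers, in the same order. The part of the muscle tissue that these markers measure in the tumour levels was not tested.

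The catalytic subunit Phkg1 was at 88.0, 57.7, 36.6, 13.3 and 202 in tumours 1 to 5, against 5798, 1621, 4944 and 5351 in muscles 1 to 4. Of the tumours, tumour 5 alone reached the floor, and the tumour mean of 79.5 ± 73.8 (SD, n = 5) was 48.9 ± 31.8 (SD, n = 4) without it. The log2 fold change was −5.71 (adjusted p = 2.12e-05, SE 0.55), but its size is limited by background, and it was −4.95 with a pseudocount of 64. The second Phkg1 probe set was below the floor in all 5 tumours and averaged 3955 ± 1779.9 (SD, n = 4) in muscle, which makes it at least 27.8-fold lower in tumours.

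Pygl was at 296, 344, 818, 560.1 and 502 in tumours 1 to 5, against 461, 2451, 673 and 473 in muscles 1 to 4. The groups overlapped, and muscle 2 stood far above every other sample. The log2 fold change was −0.70 (adjusted p = 0.249, SE 0.48), and leaving out muscle 2 moved it to −0.15 (adjusted p = 0.727), with a muscle mean of 536 ± 119 (SD, n = 3), beside 504 ± 206 (SD, n = 5) in tumours. Muscle 2 is also the sample with the highest adipocyte markers, whose part in this level was not tested. Of the adipocyte list, 0 of the 4 markers tested were called, beside 48.0% of all genes called in either direction. Lep was below the floor in all tumours, no adipocyte marker was at 0, and their summed level was 675 to 34224 in tumours. Of 5 hepatocyte markers only Ttr and Gys2, the liver glycogen synthase, were held. Gys2 was below the floor in all tumours and reached it in muscle 2 alone, at 301.

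Pygb was at 875, 883, 1205, 1719.7 and 1443 in tumours 1 to 5, against 501, 729.8, 312 and 341 in muscles 1 to 4. All 5 tumours lay above all 4 muscle samples, and the highest muscle sample was again muscle 2. The log2 fold change was 1.38 (adjusted p = 0.00284, SE 0.30), or 1.61 (adjusted p = 0.00117) without muscle 2. Among the tumours Pygb was highest in tumours 4 and 5, which had the lowest and the highest summed muscle markers. Of 4 astrocyte markers 3 were held, with summed levels of 289.6 to 855 in tumours and 1687 to 3431 in muscle. Aqp4 and S100b were called lower, S100b with overlapping groups, while Slc1a2, too dim to be tested, averaged 176 ± 192 (SD, n = 5) in tumours, against 37.6 ± 45.0 (SD, n = 4) in muscle. In normal muscle Aqp4 was at 1389 to 2183, and S100b was at 1243 in muscle 2 and 194 to 223 in the other muscle samples. Whether these markers read astrocytes in these tissues was not tested. Of 7 macrophage markers 4 were held, of which 2 were higher and 0 lower, beside 30.1% higher and 17.9% lower among all genes. The summed level of these macrophage markers was 1606 to 7525 in tumours and 1857 to 2329 in muscle. Their part in the Pygb level was not tested.

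The balance of the phosphorylase forms was compared within arrays, where the scaling of an array cancels but for the pseudocount. The log2 level of Pygm minus that of Pygl was 0.96, −0.61, −2.90, −3.00 and 2.76 in tumours 1 to 5, against 6.18, 2.81, 5.35 and 6.09 in muscles 1 to 4. All tumours lay below all muscle samples, but tumour 5 and muscle 2 lay next to each other. The difference between tumour and muscle was −5.66 (SE 1.36, exact permutation p = 0.0159, adjusted p = 0.0212, two-sided). For Pygm minus Pygb it was −0.55, −1.92, −3.45, −4.59 and 1.26 in tumours, against 6.06, 4.53, 6.43 and 6.54 in muscle. The groups did not overlap and differed by −7.74 (SE 1.13, exact permutation p = 0.00794, adjusted p = 0.0159, two-sided). These are log2 differences that show unequal change, adjusted over 4 such pairs, and the smallest p that 126 splits of the arrays can give is 0.00794.

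**Figure D2:**
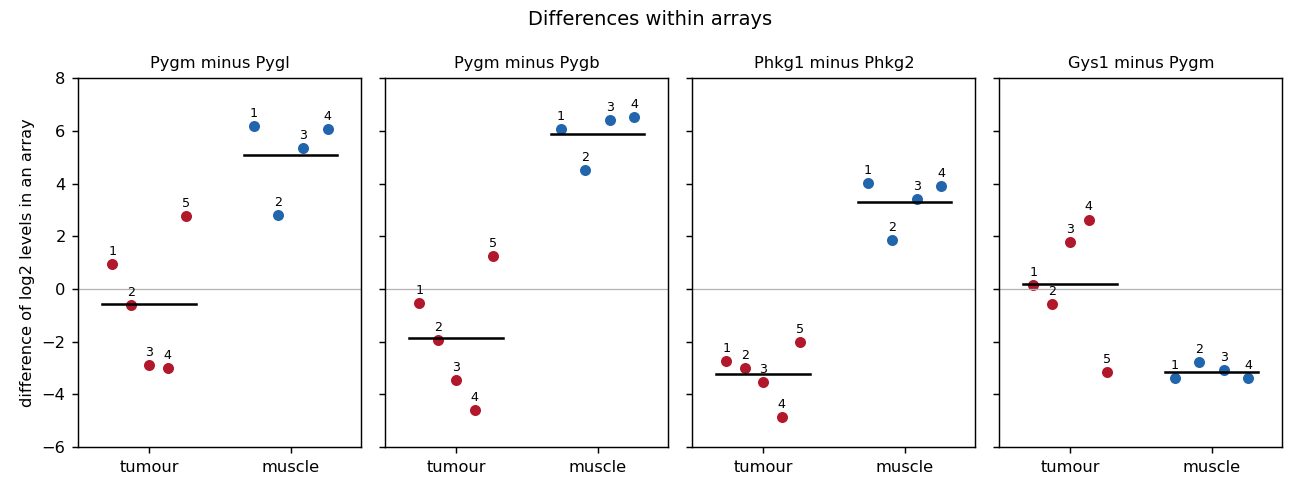
Difference of the log2 levels of 2 genes within an array, for 4 pairs, in tumours (red, left) and muscle (blue, right), with array numbers and group means as black lines. Tumour and muscle do not overlap for Pygm minus Pygl, Pygm minus Pygb and Phkg1 minus Phkg2, while for Gys1 minus Pygm tumour 5 lies among the muscle samples.

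The subunits of phosphorylase kinase did not change alike. Phka1 was at 181, 252, 356, 361 and 679 in tumours 1 to 5, against 12528, 3839.6, 8484 and 10523 in muscles 1 to 4. Every tumour reached the floor and lay below every muscle sample, and the log2 fold change was −4.54 (adjusted p = 1.31e-05, SE 0.40). The other 2 Phka1 probe sets gave −4.27 and −3.94. The one at −4.27 reached the floor in only 2 of the 5 tumours, so the size of its fall is limited by background. The probe sets did not order the tumours alike: the one that stands for the gene was lowest in tumour 1, and the third was lowest in tumour 2. Without tumour 5 and muscle 2 together, the log2 fold change was −5.15.

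Phkb was at 954, 1512, 891, 1398 and 1338 in tumours 1 to 5, against 9428, 3710.4, 7377 and 8888 in muscles 1 to 4. The tumours were close together and all below muscle, and muscle 2 was the lowest of the muscle samples. The log2 fold change was −2.52 (adjusted p = 5.75e-05, SE 0.29). The beta subunit serves both the muscle and the liver complex.

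Phkg2 was at 679.8, 576, 597, 831 and 864 in tumours 1 to 5, against 343, 431, 442 and 339 in muscles 1 to 4. The lowest tumour was above the highest muscle sample, and the log2 fold change was 0.83 (adjusted p = 0.00582, SE 0.20). Its call ended with arrays centred on their median, at 0.64 (adjusted p = 0.0503). Phka2, the alpha subunit of liver, was at 628 ± 88.7 (SD, n = 5) in tumours, against 422 ± 125 (SD, n = 4) in muscle, and the log2 fold change was 0.58 (adjusted p = 0.0491, SE 0.22). Its call held under 11 of 27 alternatives, and the value turned to −0.15 (adjusted p = 0.686) with its probe sets averaged.

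The catalytic subunits were also set against each other within arrays. The log2 level of Phkg1 minus that of Phkg2 was −2.74, −3.01, −3.54, −4.86 and −2.01 in tumours 1 to 5, against 4.02, 1.87, 3.44 and 3.92 in muscles 1 to 4. It was negative in every tumour and positive in every muscle sample, though the sign itself depends on the probe sets, and in tumours 1 to 4 Phkg1 lay below the floor. The difference between tumour and muscle was −6.54 (SE 0.69, exact permutation p = 0.00794, adjusted p = 0.0159, two-sided).

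On the side of synthesis, Gys1 was at 659.7, 145, 369, 434 and 377 in tumours 1 to 5, against 3297, 2487, 3321 and 3155 in muscles 1 to 4. Tumour 2 was the lowest and tumour 1 the highest, and every tumour lay below every muscle sample. The log2 fold change was −3.03 (adjusted p = 5.21e-05, SE 0.34). A second Gys1 probe set was below the floor in all tumours and at 624 ± 109 (SD, n = 4) in muscle, at least 4.96-fold lower.

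Gbe1 was at 73.7, 196, 186, 146 and 454 in tumours 1 to 5, against 809, 1973, 898 and 716 in muscles 1 to 4. Tumour 5 was the highest tumour and tumour 1 lay below the floor, while muscle 2 was 2.44 times the mean of the other muscle samples. The log2 fold change was −2.38 (adjusted p = 0.00117, SE 0.44), or −2.06 (adjusted p = 0.00396) without muscle 2 and −1.66 (adjusted p = 0.0107) with the Actb ratio as a covariate.

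Synthase and the muscle phosphorylase were set against each other in the same way. The log2 level of Gys1 minus that of Pygm was 0.15, −0.55, 1.79, 2.64 and −3.15 in tumours 1 to 5, against −3.38, −2.79, −3.08 and −3.39 in muscles 1 to 4. Tumour 5 lay within the range of muscle and the other tumours above it. The difference was 3.33 (SE 1.02, exact permutation p = 0.0317, adjusted p = 0.0317, two-sided). This call did not last: it ended when any single array other than tumour 5 was left out (adjusted p = 0.0714 to 0.0893), and was lost with the CC17 tumours averaged (adjusted p = 0.0857) and with quantile normalisation (adjusted p = 0.0556). Leaving out or averaging arrays also leaves fewer splits, which raises the smallest p the test can give. With 1 array left out the difference ran from 2.72 to 4.17.

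**Figure D3:**
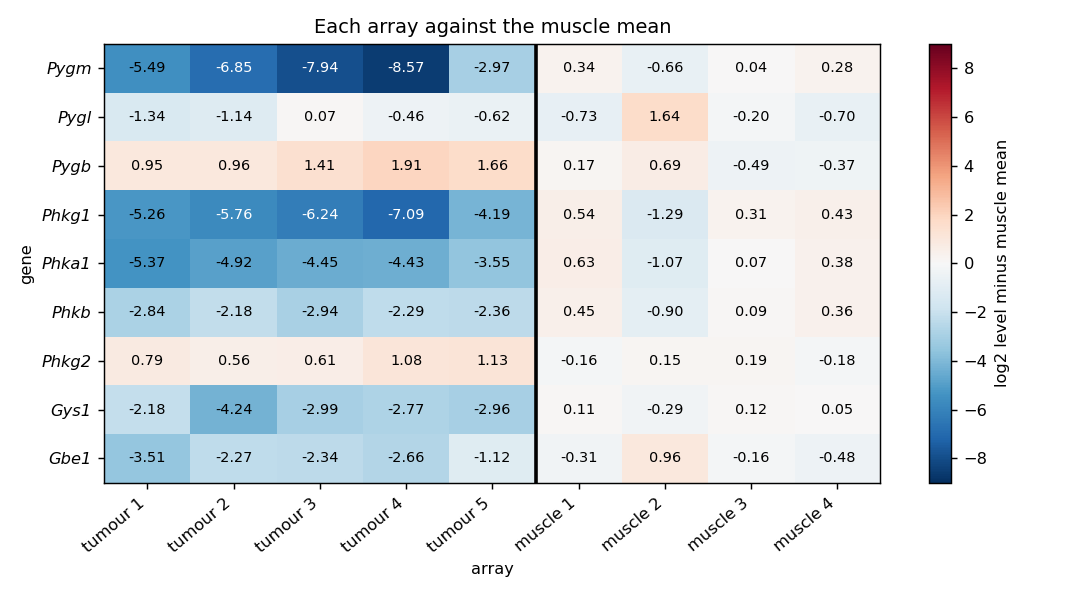
Log2 level of each gene in each array minus the gene's muscle mean, tumours left of the black line and muscle right of it, with blue below and red above the muscle mean. Pygm ranges from −2.97 in tumour 5 to −8.57 in tumour 4, where it lay below the floor, whereas Phkb stays between −2.94 and −2.18 in all tumours.

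The members were spread unevenly over the tumours, which is given here as a description. Relative to the muscle mean, on the log2 scale, Pygm ran from −6.85 in tumour 2 to −2.97 in tumour 5 among the tumours above the floor. Phka1 ran from −5.37 in tumour 1 to −3.55 in tumour 5, and Gys1 from −4.24 in tumour 2 to −2.18 in tumour 1. Phkb, Pygb and Phkg2 each stayed within 1 log2 unit over the 5 tumours. Genes with a pattern most like that of a member were taken by the smallest root mean square difference, over the 5 tumours, of log2 level minus muscle mean. For Pygm they were Cmya5 (0.48), Myl2 (0.61), Ryr1 (0.65), Dhrs7c (0.69) and Trim63 (0.69). For Pygb they were Srpk2 (0.12), AI854703 (0.13), Wdr13 (0.14), Ube2z (0.14) and Pign (0.14), and for Pygl Afdn (0.15), Cd274 (0.15), Prodh (0.18), Wdr59 (0.19) and Siah2 (0.20).

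Within the muscle group, the members split in muscle 2. Pygm, Phkg1, Phka1, Phkb and Gys1 were below all other muscle samples there, at 0.540, 0.302, 0.365, 0.433 and 0.764 times the mean of muscles 1, 3 and 4. Pygl, Gbe1 and Pygb were above all others, at 4.58, 2.44 and 1.90 times that mean, and Phkg2 lay within their range. The 5 lower and 3 higher members stand beside 37.8% and 31.7% of all tested genes. Gys1 is counted as lower by its brighter probe set alone. Its second probe set went the other way, at 779 in muscle 2, against 568, 618 and 532 in muscles 1, 3 and 4. Ckm, the muscle creatine kinase, and Ryr1, the calcium release channel, were at 0.789 and 0.487 times the mean of the other muscle samples. The muscle markers held ran from 0.468 (Casq1) to 0.930 (Myh1) times it, but for Des at 1.04. Adipoq, the adipocyte hormone adiponectin, was at 11.5 times it, and the adipocyte markers held ran from 2.16 (Lep) and 2.46 (Fabp4) to 15.2 (Cidec). This is 1 sample with no replicate, so no test was made, and the part of fat or of the muscle's position in these levels was not tested. Without muscle 2 and muscle 3, the sample with high neutrophil markers, Pygm, Phka1, Phkb, Gys1 and Gbe1 remained called lower and Pygb and Phkg2 higher, while Phkg1 was not tested.

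**Figure D4:**
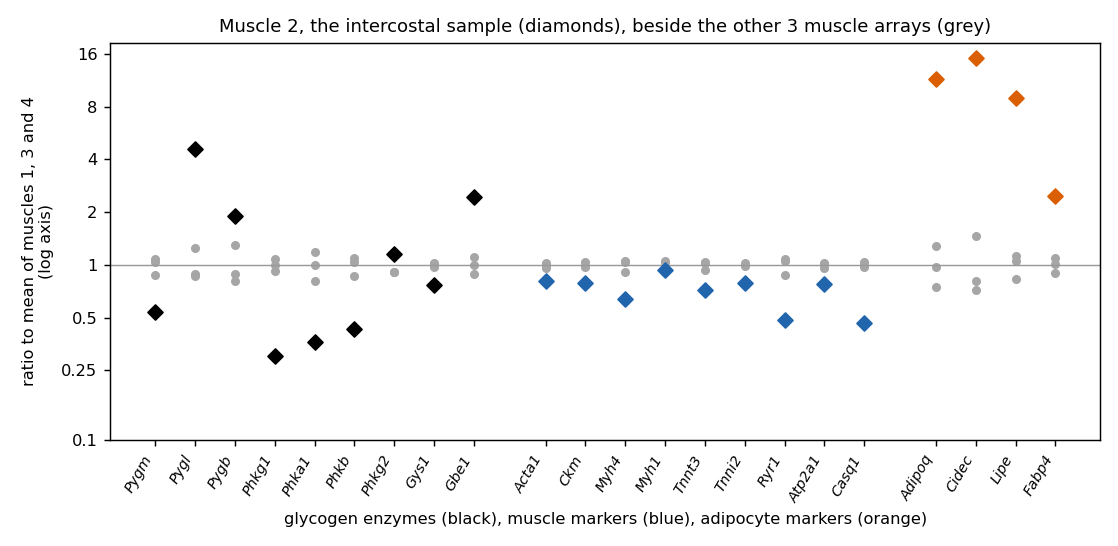
Level in muscle 2, the intercostal sample (diamonds), as a ratio to the mean of muscles 1, 3 and 4 (log axis), with those 3 samples as grey points, for the 9 enzymes (black), muscle markers (blue) and adipocyte markers (orange). The muscle marker Des, at a ratio of 1.04, and the adipocyte marker Lep, at 2.16, are not drawn. Pygl, Gbe1 and Pygb lie above the other muscle samples with the adipocyte markers drawn, and Pygm, Phkg1, Phka1, Phkb and Gys1 below them. Each enzyme is drawn by the probe set that stands for its gene. The second Gys1 probe set, not drawn, was highest in muscle 2.

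Other genes of glycogen handling were mixed. Of 46 such genes in 6 lists, 38 were held and 34 tested, of which 16 were lower in tumours, 6 were higher and 12 were not called, beside 17.9% of all genes called lower and 30.1% called higher. Their median log2 fold change was −0.42, and that of all genes was 0.23. Among the other synthesis enzymes 3 of 4 tested were lower and 1 higher. Pgm1, the phosphoglucomutase that links glucose 1-phosphate and glucose 6-phosphate, was at 792 ± 457 (SD, n = 5) in tumours, against 14360.0 ± 5144 (SD, n = 4) in muscle. Ugp2, which makes UDP-glucose, was at 3758 ± 918 (SD, n = 5) and 33409 ± 7113 (SD, n = 4), and Gyg, glycogenin, at 2374 ± 789 (SD, n = 5) and 17702 ± 3577 (SD, n = 4), in tumours and muscle in that order. Their log2 fold changes were −4.22, −3.16 and −2.94. That of Pgm1 was −3.06 with its probe sets averaged and −4.82 without tumour 5 and muscle 2 together, and that of Gyg was −3.79 over probe sets ending in _at alone. Pgm2, a related mutase that acts on pentose phosphates, had a log2 fold change of 1.37 (adjusted p = 0.00706, SE 0.35), with overlapping groups.

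Of 7 other breakdown genes 3 were held. Of these, 1 was lower, 1 higher (Phka2) and 1 not called (Gaa, the lysosomal glucosidase, at −0.32), beside 17.9% lower and 30.1% higher among all genes. The gene that fell was Stbd1, a glycogen-binding protein, at 321 ± 318 (SD, n = 5) in tumours, against 1596 ± 737 (SD, n = 4) in muscle, with overlapping groups. Its log2 fold change was −2.52 (adjusted p = 0.00386, SE 0.57), or −3.11 without muscles 2 and 3 and −3.36 without tumour 5 and muscle 2. The calmodulin genes were not analysed here.

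Protein phosphatase 1 activates synthase and switches off phosphorylase, and regulatory subunits hold it on glycogen. Of 8 tested subunit genes 2 were lower, 0 higher and 6 not called, which stands beside 17.9% lower and 30.1% higher among all genes. Ppp1r3c, a glycogen-targeting subunit, was at 1917, 741, 128, 291 and 5508 in tumours 1 to 5, against 34565, 17246, 29849.9 and 36846 in muscles 1 to 4. Its log2 fold change was −5.13 (adjusted p = 0.000612, SE 0.87), and, as for Pygm, tumour 5 was the highest of the tumours. Tumour 3 lay below the floor, and the value was −4.50 without tumour 3, −5.82 without tumour 5 and −6.06 without tumour 5 and muscle 2. Ppp1cb, a catalytic subunit, had a log2 fold change of −0.99 (adjusted p = 0.00935, SE 0.26), and its call ended with quantile normalisation, at −0.33 (adjusted p = 0.298), and without muscles 2 and 3 together (adjusted p = 0.058). Ppp1r3a, the glycogen-targeting subunit of muscle, was near the floor in both groups, at 146 ± 85.7 (SD, n = 5) in tumours, against 194 ± 51.5 (SD, n = 4) in muscle (adjusted p = 0.315).

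Among synthase kinases, AMP kinase subunits and the laforin complex, 4 of 9 tested genes were lower, 1 was higher and 4 were not called, beside the same shares of all genes. The gamma, alpha and beta subunits of AMP kinase found in muscle, Prkag3, Prkaa2 and Prkab2, had log2 fold changes of −5.70, −3.42 and −2.72, and that of Prkab2 was −3.44 without muscles 2 and 3. Prkag3 was at 93.1, 41.6, 12.2, 11.3 and 158 in tumours 1 to 5, against 7276, 711, 3051 and 6250.4 in muscles 1 to 4, with muscle 2 again the lowest of its group. Of the tumours only tumour 5 reached the floor, so the size of its fall is limited by background, and it was −4.81 with a pseudocount of 64, −6.30 with a pseudocount of 1 and −6.41 without muscle 2. Nhlrc1, the ubiquitin ligase malin, fell by 1.39 on the log2 scale, but its call ended without muscle 1, 3 or 4 (adjusted p = 0.0508 to 0.0631), with each array centred on genes of the ribosome and proteasome (adjusted p = 0.0601) and with the Actb ratio as a covariate (adjusted p = 0.121). Gsk3b, which inhibits synthase, had a log2 fold change of 0.17 (adjusted p = 0.562, SE 0.23), whose sign turned with arrays centred on their median (−0.03). The gene that was higher, Prkab1, the other beta subunit of AMP kinase, rose by 1.20 on the log2 scale and is named outside the rule, after its value was seen.

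Protein kinase A activates phosphorylase kinase. Of its 5 tested subunit genes 2 were lower, 2 higher and 1 not called, beside 17.9% lower and 30.1% higher among all genes. The uncalled one, Prkar2b, a regulatory subunit named after its values were seen, was at 3249, 2195, 2361, 2015 and 1607 in tumours 1 to 5, against 368, 5324, 269.9 and 238 in muscles 1 to 4, with muscle 2 above all tumours and the other muscle samples below them. Other regulatory subunits went apart, with Prkar1b at a log2 fold change of 2.02 (adjusted p = 7.59e-05, SE 0.24) and Prkar2a at −1.60 (adjusted p = 0.000158, SE 0.22). Over probe sets ending in _at alone, Prkar1b was at 1.02 (adjusted p = 0.0298). So did the catalytic subunits, with Prkaca at −1.19 (adjusted p = 0.0228, SE 0.38) and Prkacb at 0.94 (adjusted p = 0.00390, SE 0.21). The call of Prkaca ended under 6 of 26 alternatives, with an adjusted p of up to 0.0712. These included leaving out muscle 1 or 4 (adjusted p = 0.0596 and 0.0581) or muscle 3 (adjusted p = 0.0501) and quantile normalisation (adjusted p = 0.064). That of Prkacb ended with its probe sets averaged, at 0.30 (adjusted p = 0.532).

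Of 5 genes of glucose entry and release, 4 were lower and 1 higher, beside the same shares of all genes. Slc2a4, the insulin-responsive glucose transporter, was at 692 ± 295 (SD, n = 5) in tumours, against 13050.1 ± 3937 (SD, n = 4) in muscle. Hk2, the hexokinase of muscle, was at 627 ± 182 (SD, n = 5) and 9749.7 ± 2381 (SD, n = 4), in tumours and muscle in that order, and Slc37a4, the glucose 6-phosphate transporter, fell by 3.17 on the log2 scale. G6pc3, a glucose 6-phosphatase of most tissues, had a log2 fold change of −1.57 (adjusted p = 0.0489, SE 0.60), and its call ended under 16 of 27 alternatives, with a value of −0.34 (adjusted p = 0.521) with the Actb ratio as a covariate. The higher gene was Hk1, the hexokinase of most tissues, with a log2 fold change of 1.30, named outside the rule after its value was seen.

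**Figure D5:**
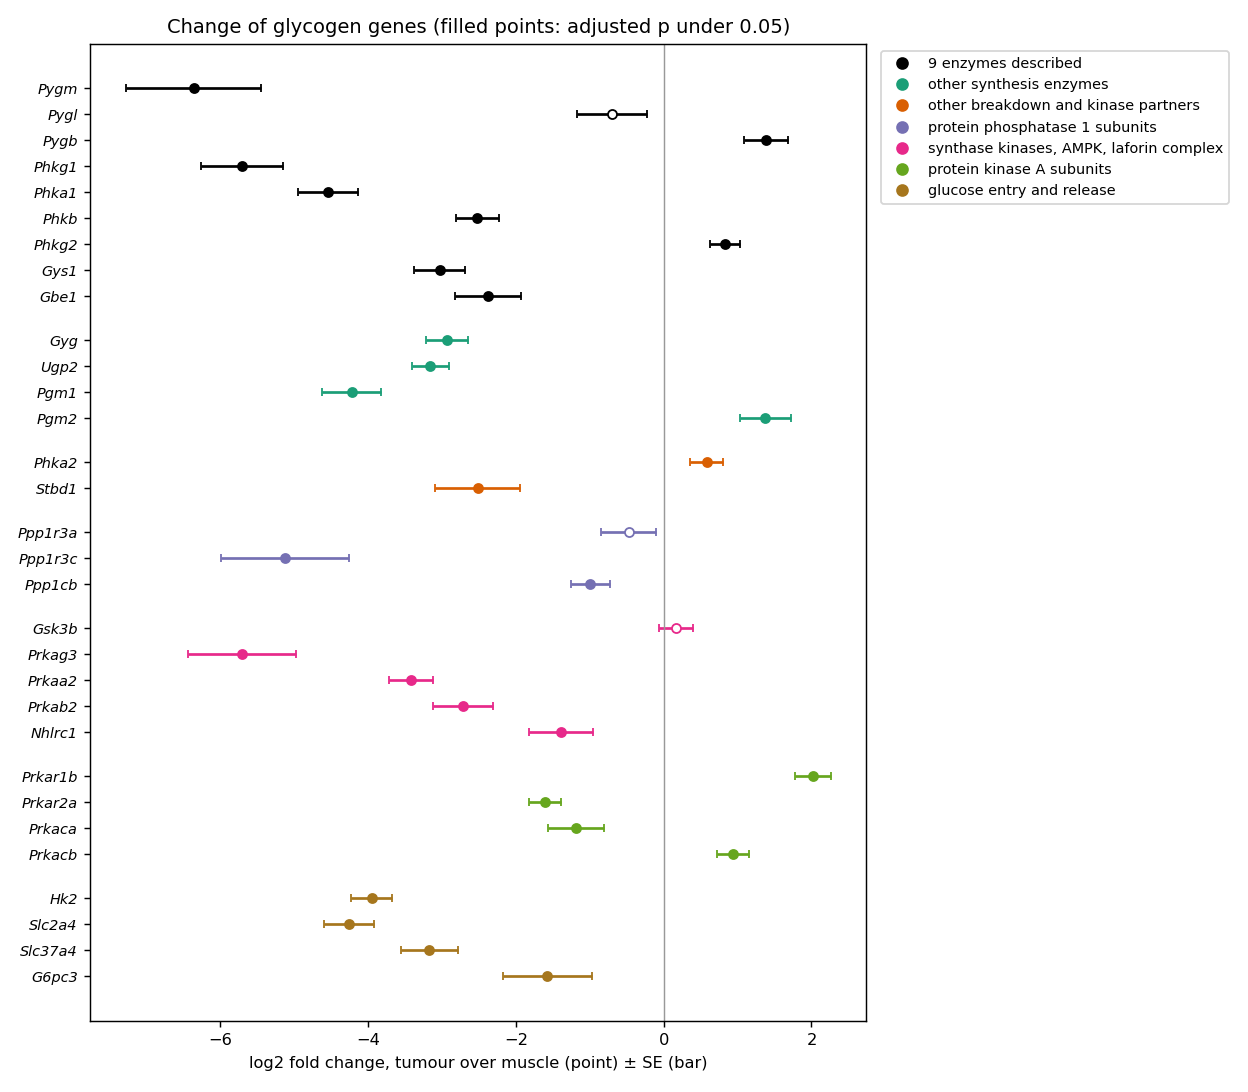
Log2 fold change of tumour over muscle (points) with its SE (bars) for the 9 enzymes and 22 other named glycogen genes, coloured by list, filled where the adjusted p was under 0.05 and open where it was not. Pygm, Phkg1, Prkag3 and Ppp1r3c lie furthest below 0, of which Phkg1 and Prkag3 were below the floor in 4 of 5 tumours, and Pygb, Phkg2, Phka2, Pgm2, Prkar1b and Prkacb lie above it. The uncalled Gsk3b, at 0.17, also lies above 0.

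The scaling of the arrays moved all genes together. Higher calls made up 62.6% of all calls. Centring each array on its median made this 51.8%, and centring it on genes of the ribosome and proteasome made it 73.8%. Over all genes the median log2 fold change was 0.23, 0.04 and 0.46 under these scalings in that order. Over the 5 scalings, the 6 lower members remained called lower and Pygb remained called higher. The 6 lower members and Pygb also remained called, and Phkg2 too, with the Actb ratio as a covariate.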

How the data were processed

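The deposited values are linear intensity signals of MAS5, per the submitters' processing notes. The version, scaling target and background step are not given in the sources used here, and no detection calls were used. Array names of genes come from GEO's platform annotation, and 25498 of 25581 single-symbol probe sets matched RefSeq. The trimmed means (2%) of the arrays ran from 430.2 to 610.0, so arrays were scaled to a common one, by 0.909 to 1.29. Of several probe sets for a gene, the brightest on average stood for it, and at least 4 arrays had to reach the floor (40th percentile) for a test, which left 10650 of 14440 genes. Log2(value + 16) was fitted with limma 3.58.1 in R 4.3.3 (eBayes with an intensity trend; two-sided tests). The p-values were adjusted by Benjamini-Hochberg over all genes tested, and the threshold for a call was 0.05. A fold change on this scale understates that of dim genes. Where every tumour was below the floor, a fold is given as a bound against the floor, written "at least". Pairs of genes were compared by exact permutation over 126 splits, with SEs from the group SDs. The procedure was tested on simulated data. The number of arrays limits the precision. No 2 arrays held identical values.

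The members and lists were chosen with earlier results of these data known. The rule for other named genes took 10 fixed genes, of which 1 is not reported here, and up to 4 called genes per list by size of change, 23 in all. Alternatives were 4 scalings, pseudocounts of 1 and 64, 3 filters, 2 choices of probe set, 3 fits, an RNA quality covariate, the CC17 pair averaged and each array left out. Leaving out muscles 2 and 3, or tumour 5 and muscle 2, was chosen after seeing the data. Of the other marker lists, proliferation genes were higher in tumours for 4 of 4 tested, beside 30.1% of all genes called higher. Called lower were 1 of 5 endothelial, 1 of 1 erythroid, 2 of 2 smooth muscle and 2 of 5 neutrophil genes, beside 17.9% of all genes. The neutrophil genes called, S100a9 and Ngp, were highest in muscle 3, at 21336 and 9506.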

Additional observations from a re-analysis of the deposited data

Results flagged for a closer look

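A single array lay far from the rest of its group in 9 of the 64 groups examined, by the gap to its nearest neighbour as a share of the group's range. The share flagged by chance was taken as about 5% and not estimated from these data. The groups share the same arrays and are not independent, so the count cannot be tested against that share. In muscle 2 this held for 5 genes. Pygl was at 2451, with the nearest muscle sample at 673, and Gbe1 was at 1973, with the nearest at 898. Phka2 was at 606, with the nearest at 375, and Gys2 was at 301, with the nearest at 54.5, below the floor. Ugp2 was the one of the 5 that was lower there, at 22810.0, with the nearest at 35853. In tumour 5 it held for 3 genes. Pygm was at 3480.3, with the nearest tumour at 593, Stbd1 at 872, with the nearest at 304, and Prkaa2 at 994, with the nearest at 531. In tumour 1 it held for Prkacb, at 3659, with the nearest tumour at 2354.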

How the results depend on the processing

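Over 27 alternatives, the 7 members Pygm, Pygb, Phka1, Phkb, Phkg1, Gys1 and Gbe1 kept their direction and their call wherever they were tested. Phkg1 was not tested in 3 of them and Gbe1 in 1, for want of a probe set or of arrays over the floor. The count of members called higher was 1 instead of 2 with arrays centred on their median, where Phkg2 was lost. The counts of genes called ran from 3785 to 6045, those of lower members from 4 to 6, and those of other glycogen genes from 12 to 18 lower and from 4 to 8 higher. Gys1 against Pygm was 2.93 with quantile normalisation, 3.22 with the CC17 tumours averaged and 2.72 to 4.17 with 1 array left out, and lost its call in all of these but the one without tumour 5, and the cause was not tested. Without muscles 2 and 3, no pair passed by the exact permutation test. The differences were −6.69 for Pygm against Pygl, −8.15 for Pygm against Pygb and −7.20 for Phkg1 against Phkg2 (adjusted p = 0.0635 each). That of Gys1 against Pygm was 3.56 (adjusted p = 0.0952). Fewer arrays leave fewer splits, which raises the smallest p the test can give, so the lost calls do not show smaller differences. With all arrays the differences were −5.66, −7.74, −6.54 and 3.33, in the same order. The uncalled Pygl turned to 0.018 without muscles 2 and 3, Phka2 to −0.15 with its probe sets averaged, and the uncalled Gsk3b to −0.026 with arrays centred on their median, −0.12 with its probe sets averaged, −0.14 without tumour 4, −0.09 without tumour 5 and −0.033 without tumour 5 and muscle 2, and with 1 array left out Gsk3b ran up to 0.35. No paired analysis was possible because the labels give no replicate numbers that tie a tumour to a muscle sample. The CC17 tumours as a block were not run, since 1 pair gives no estimate of the correlation. Signals below the floor, those of Phkg1 and Prkag3 in 4 tumours and of Pygm in 2, limit the size of the falls.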
